A study of Mus musculus with 2 samples.

Results

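RNA for the cytosolic and mitochondrial heat shock chaperones was compared between granulocyte-monocyte progenitors (GMPs) of NTB mice and of mice carrying 4T1 mammary tumors. The set held 10 gene symbols, found by name among the 24421 symbols of each deposited file: Hspa1a, Hspa1b, Hspa8, Hsp90aa1, Hsp90ab1, Hspb1, Dnajb1, Hsph1, Hspd1 and Hspe1. Of these, 9 passed a minimum mean RPKM of 1 over both libraries, as did 10378 genes in all, and Hspb1 was listed at 0 in both. The genes were chosen by symbol with their values in these same libraries already known, so that the ratios below describe the libraries and carry no test. RPKM are reads scaled by the length of the gene and by the size of the library.

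GMPs are the bone marrow progenitors that give rise to granulocytes and monocytes. They were purified by flow cytometry from bone marrow of female mice without a tumor (NTB-GMP) and of female mice with orthotopic implants of 4T1, a mouse mammary carcinoma line (4T1-GMP), and total RNA was sequenced from 1 library per group. The labels give both groups an F1 semi-syngeneic H-2b/d background, whereas BALB/c and C57BL/6 mice are described in the study's methods. The methods give 1 age range, of young adults, for the mice of all experiments, and the number of mice behind each library and the tumor stage at collection are not given in the sources used here. With 1 library per group there was no replicate error. Intervals are 95% Clopper-Pearson intervals on the whole reads recovered from the RPKM, so they cover counting error only. PCR duplicates could not be told from separate molecules, so the intervals may be too narrow even for that. For some genes the recovered reads are lower bounds, which makes their intervals too wide instead.

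Heat shock proteins are chaperones that hold or refold unfolded proteins. HSP70 proteins bind exposed stretches of a client in a cycle of ATP hydrolysis that J-domain proteins start and nucleotide exchange factors end, HSP90 proteins act later on near-native clients such as kinases, and the mitochondrial HSP60-HSP10 chamber encloses proteins after import. Some of these genes are transcribed in resting cells and others mainly after heat, arsenite or mechanical stress, when the transcription factor HSF1 binds heat shock elements, arrays of inverted GAA units, in their promoters. Isolation of cells from tissue is known to raise several of the inducible members together with immediate early genes such as Fos and Jun.

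The promoters are shown first because HSF1 acts through heat shock elements, which can be looked for in these letters. RefSeq promoter windows of 300 bases (250 before and 50 after a start, build GRCm38.p6) were matched for 7 of the 10 genes, with 10 windows in all. Hspa8, Hsp90aa1 and Hsp90ab1 were not matched. The 250 bases before the start are given for 5 of these genes, 5′ to 3′ on the gene's strand, with heat shock elements in capitals. Hspa1a (chr17:34972157-34972406, minus strand) and Hspa1b (chr17:34959239-34959488, minus strand) had the largest difference between the libraries, Dnajb1 (chr8:83607925-83608174, plus strand) was the third gene that was lower past 1.5-fold, Hspe1 (chr1:55087898-55088147, plus strand) had the highest ratio, and Hspb1 (chr5:135887669-135887918, plus strand) was listed at 0.
Hspa1a: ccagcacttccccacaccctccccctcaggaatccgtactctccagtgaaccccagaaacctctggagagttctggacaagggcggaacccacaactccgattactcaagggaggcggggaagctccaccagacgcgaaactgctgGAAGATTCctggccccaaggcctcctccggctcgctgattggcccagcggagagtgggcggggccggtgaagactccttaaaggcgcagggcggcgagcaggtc
Hspa1b: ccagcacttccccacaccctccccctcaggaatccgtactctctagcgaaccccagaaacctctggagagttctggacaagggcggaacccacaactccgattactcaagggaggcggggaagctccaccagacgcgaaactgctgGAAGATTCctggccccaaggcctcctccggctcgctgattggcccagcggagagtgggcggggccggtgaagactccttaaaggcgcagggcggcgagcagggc
Dnajb1: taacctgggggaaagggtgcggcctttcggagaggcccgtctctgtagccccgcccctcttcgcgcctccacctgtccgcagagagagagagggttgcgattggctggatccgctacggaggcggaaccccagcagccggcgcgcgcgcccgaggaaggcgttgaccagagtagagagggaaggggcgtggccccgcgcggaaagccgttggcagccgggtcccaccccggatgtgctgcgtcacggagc
Hspe1: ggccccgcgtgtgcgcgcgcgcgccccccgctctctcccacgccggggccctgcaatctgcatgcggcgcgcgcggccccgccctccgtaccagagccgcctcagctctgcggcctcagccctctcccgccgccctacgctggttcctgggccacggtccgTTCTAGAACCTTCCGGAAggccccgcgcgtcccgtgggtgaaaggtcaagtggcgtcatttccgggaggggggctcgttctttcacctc
Hspb1: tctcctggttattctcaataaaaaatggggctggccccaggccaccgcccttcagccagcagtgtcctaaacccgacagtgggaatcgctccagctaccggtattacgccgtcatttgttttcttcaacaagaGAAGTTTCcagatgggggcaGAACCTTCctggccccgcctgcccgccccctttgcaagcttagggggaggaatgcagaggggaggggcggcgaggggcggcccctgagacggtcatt

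A heat shock element was counted where either strand read GAANNTTC or TTCNNGAA, which are the same on both strands, and neighbouring matches could overlap. Units with a changed letter were not counted, so a window may hold looser elements beyond its matches. An exact match was in the window of 6 of the 7 genes, and in 15.1% of all 32851 RefSeq promoter windows of this length, or for 17.0% of 27025 genes. The promoters of Hspa1a and Hspa1b held 1 match each, in both cases with its first base 104 bases before the start, and the windows differed at 3 of the 250 bases printed. Hspb1 held 2 matches, which began 117 and 97 bases before the start. Neither of the windows of Dnajb1 held one. A stricter array of 3 units in a row was found for 3 of the 7 genes (Hsph1, Hspd1 and Hspe1), against 0.603% of all windows. Hspd1 and Hspe1 are transcribed away from each other, and the 3 overlapping matches that begin 89, 84 and 79 bases before the start of Hspe1 are the same bases that lie upstream of the second start of Hspd1. A GC box (GGGCGG or CCGCCC) was in the windows of all 7 matched genes and in 35.7% of all windows, and a CCAAT box (CCAAT or ATTGG) was found for 5 of the 7 genes and in 37.4% of all windows. The TATA letters TATAAA or TTTATA were found for 0 of the 7 genes, against 13.6% of all windows. These matches describe letters in a window and not binding in GMPs. Genes with a heat shock element were found among those that were lower (Hspa1a and Hspa1b), among those within 1.5-fold (Hsph1, Hspd1 and Hspe1) and at 0 (Hspb1).

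**Figure D1:**
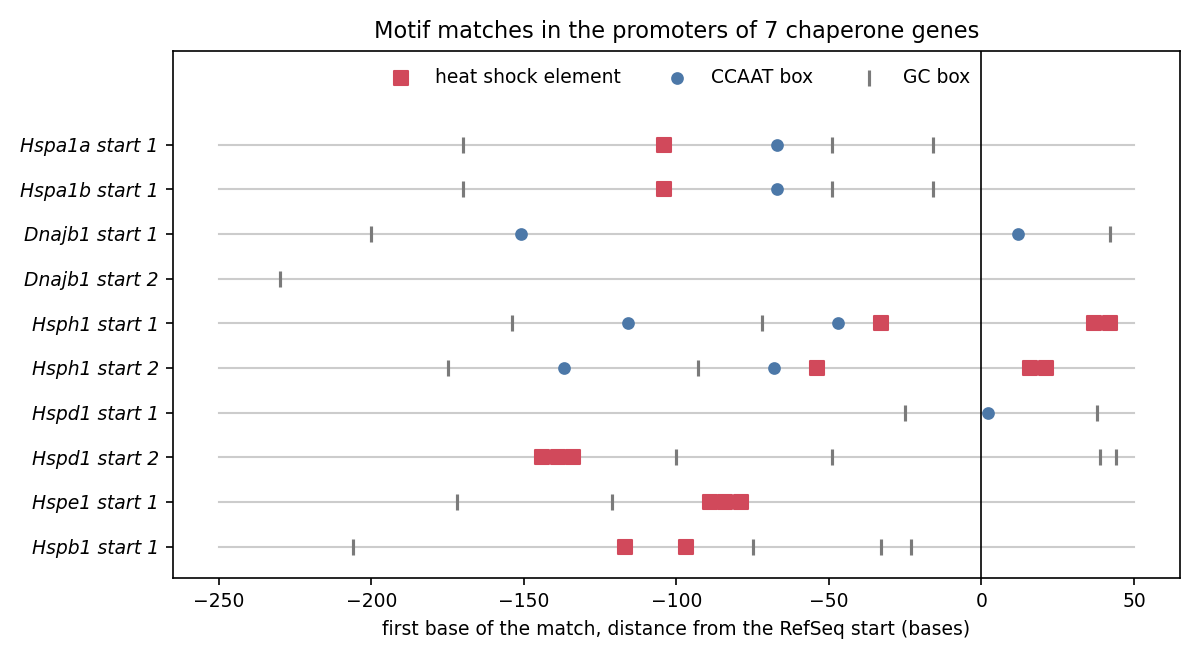
Motif matches in the 10 RefSeq promoter windows of 7 chaperone genes. The x axis gives the distance in bases of a match's first base from the start, and squares, circles and bars stand for heat shock elements, CCAAT boxes and GC boxes. The windows of Hspa1a and Hspa1b have the same pattern, with the exact heat shock element match 104 bases before the start. The windows of Dnajb1 have no exact match to that element.

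The levels of the 10 genes covered a wide range and their order differed between the libraries. In NTB-GMP, Hspa8 (1056 RPKM) and Hsp90ab1 (1053 RPKM) were the highest and did not differ beyond their counting intervals. Hsp90aa1 (511 RPKM), Hspd1 (227 RPKM), Hspe1 (134 RPKM), Hspa1b (111 RPKM), Hspa1a (99.4 RPKM), Dnajb1 (23.0 RPKM) and Hsph1 (21.7 RPKM) followed. Among these neighbours, the intervals of Hspe1 and Hspa1b and those of Dnajb1 and Hsph1 overlapped. The reads of Hspe1 and Hsph1 are lower bounds, so their intervals err on the wide side and these overlaps do not show equal levels. In 4T1-GMP the first 5 places were held by the same genes in the same order, and Hspa1b and Hspa1a moved from places 6 and 7 to places 8 and 9, behind Hsph1 and Dnajb1. The 10 genes together summed to 3236 RPKM in NTB-GMP against 3690 RPKM in 4T1-GMP, which was 0.839% and 0.864% of the RPKM of all genes other than Rn45s, the 45S ribosomal RNA precursor.

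**Figure D2:**
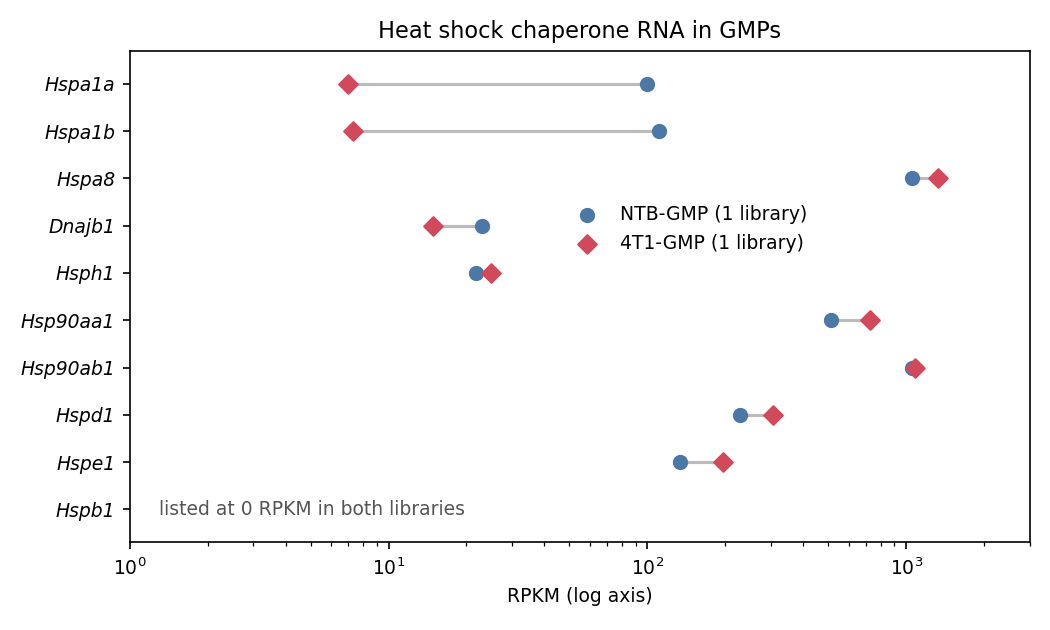
RPKM of each heat shock chaperone gene, on a log axis, in NTB-GMP (circles) and 4T1-GMP (diamonds), 1 library each. Hspa1a and Hspa1b lie at 99.4 and 111 RPKM in NTB-GMP and at 6.98 and 7.27 RPKM in 4T1-GMP, while Hspa8 and Hsp90ab1 lie at 1053 RPKM or more in both, and Hspb1 is listed at 0.

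Of the 9 genes that passed the minimum, 0 were at least 1.5-fold higher and 3 at least 1.5-fold lower in 4T1-GMP, where 9.8% and 11.6% of all 10378 genes were. The 3 genes were Hspa1a, Hspa1b and Dnajb1, and the rule of 1.5-fold was applied to the ratio of RPKM + 0.1. The median log2 ratio of the 9 genes was 0.19, and that of all genes was 0.05 with an interquartile range of -0.26 to 0.32. Rn45s reads were 17.0% of the library size behind the RPKM of NTB-GMP and 6.98% of that of 4T1-GMP, sizes that may already be scaled. Leaving it out of both library sizes moved each log2 ratio by -0.16, the median of all genes to -0.11, and the number of the 9 genes with a ratio above 0 from 6 to 5.

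**Figure D3:**
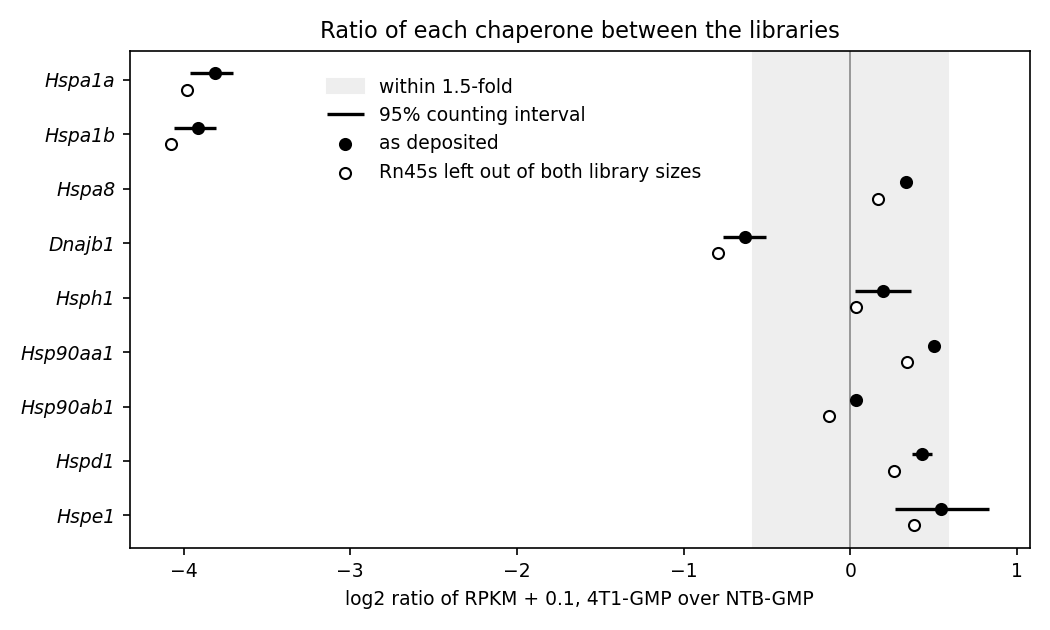
The log2 ratio of RPKM + 0.1, 4T1-GMP over NTB-GMP, for 9 chaperone genes, as deposited (filled, with 95% counting intervals) and with Rn45s left out of both library sizes (open). The grey band marks ratios within 1.5-fold. Hspa1a and Hspa1b lie near -4, Dnajb1 at -0.63, and the other 6 genes inside the band, where Hsp90ab1 changes sign between the scalings.

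The inducible HSP70 genes had the largest difference. Hspa1a (GRCm38 chr17:34969190-34972156, minus strand, 1 exon) and Hspa1b (chr17:34956436-34959238, minus strand, 1 exon) encode near-identical cytosolic HSP70 proteins that are strongly induced by stress. Hspa1a was at 99.4 RPKM (2830 reads) in NTB-GMP against 6.98 RPKM (586 reads) in 4T1-GMP. Hspa1b was at 111 RPKM (3173 reads) in NTB-GMP against 7.27 RPKM (613 reads) in 4T1-GMP. Both were thus high in NTB-GMP, where they ranked 511 and 451 among all symbols, and moderate in 4T1-GMP, where they ranked 6996 and 6883. The RPKM were 14.2-fold lower in 4T1-GMP for Hspa1a, with a log2 ratio of -3.81 (interval -3.96 to -3.70, and -4.02 to -3.65 on the smaller reads). They were 15.3-fold lower for Hspa1b, with a log2 ratio of -3.91 (interval -4.06 to -3.81). The reads of Hspa1a are the smallest whole numbers that fit its RPKM (1415 and 293) multiplied by 2, the factor at which the implied gene length equals its RefSeq span of 2798 bases.

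These ratios lay at the low end of all genes. Of the 10378 genes, 19 had a lower log2 ratio than Hspa1a, and 14 of the 19 were genes of small RNAs by their GENCODE type (10 snoRNA, 3 miRNA and 1 snRNA). The other 5, named here after their values were seen, were the protein-coding genes Thbs1, Ifi205, Rnase12, Kel and Hspa1b itself, and the first 4 of these had lower levels, with Thbs1 at 8.74 RPKM in NTB-GMP against 0.103 RPKM in 4T1-GMP. At a mean RPKM of 50 or more, among 1203 protein-coding genes, Hspa1b was the only gene below Hspa1a.

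The sequences of Hspa1a and Hspa1b limit how far each can be read alone. Of the 50-base windows of the Hspa1a transcript, 60.3% also occurred in the transcript of another gene, and of those of Hspa1b 62.3%, with 1716 windows shared between them. Their transcripts were identical at 91.4% of 2729 aligned bases. How reads that fit both were counted is not given in the sources used here, so the values of each are uncertain and their sum is the safer measure. The sum was 210 RPKM in NTB-GMP against 14.2 RPKM in 4T1-GMP, which was 6.50% and 0.386% of the RPKM of the 10 genes. The ratio of Hspa1a to Hspa1b within a library, which does not depend on library size, was 0.896 in NTB-GMP and 0.960 in 4T1-GMP, and the interval of the change (log2 -0.08 to 0.28) included 0. Hspa1a also overlaps the exons of Gm20481 on the opposite strand by 564 bases.

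Hspa1l, which lies next to Hspa1a in the opposite orientation and encodes an HSP70 protein best known from testis, was named after its values were seen. It was at 3.13 RPKM (77 reads) in NTB-GMP against 0.248 RPKM (18 reads) in 4T1-GMP, with a log2 ratio of -3.21 (interval -4.49 to -2.90). Of the 50-base windows of Hspa1l, 9.57% were also in other transcripts, all of them in that of Hspa1a. Its level may therefore depend on the counting of shared reads. The RefSeq promoter window of Hspa1l held 0 heat shock elements. All 3 HSP70 genes of this cluster were thus lower in 4T1-GMP, Hspa1l at a level near the minimum for the comparison.

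The constitutive HSP70 gene did not share this difference. Hspa8 (chr9:40800984-40810087, plus strand) encodes HSC70, the main HSP70 protein of unstressed cells, which also uncoats clathrin vesicles. It was at 1056 RPKM (22615 reads) in NTB-GMP against 1330 RPKM (83968 reads) in 4T1-GMP, a log2 ratio of 0.33 (interval 0.31 to 0.35), and ranked 53 and 33 among all symbols. Of the 10378 genes, 75.7% had a lower ratio. Relative to Hspa8, the summed RPKM of Hspa1a and Hspa1b were 0.199 in NTB-GMP and 0.0107 in 4T1-GMP, an 18.6-fold lower ratio (log2 change -4.22, interval -4.31 to -4.12). Of the 50-base windows of Hspa8, 73.2% also occurred in transcripts of 11 other genes, with 1642 of these windows in Gm15459, so its level depends on the counting of shared reads.

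Partners of HSP70 divided. Dnajb1 (chr8:83608193-83612653, plus strand) encodes HSP40, the J-domain protein that delivers clients to cytosolic HSP70 and is itself a heat shock gene. It was at 23.0 RPKM (754 reads) in NTB-GMP against 14.8 RPKM (1433 reads) in 4T1-GMP, 1.55-fold lower. Its log2 ratio was -0.63 (interval -0.76 to -0.50), so the interval reached to both sides of the 1.5-fold limit, and 10.5% of all genes had a lower ratio. Of its 50-base windows only 0.407% were shared with other transcripts. Hsph1 (chr5:149614287-149636376, minus strand) encodes HSP105, a large HSP70 relative that acts as a nucleotide exchange factor. It was at 21.7 RPKM (at least 385 reads) in NTB-GMP against 24.9 RPKM (at least 1300 reads) in 4T1-GMP, with a log2 ratio of 0.19 (interval 0.03 to 0.36) and 0 shared windows. Relative to Hspa8, Dnajb1 was lower by a log2 change of -0.97 (interval -1.10 to -0.84), and Hsph1 by -0.14 (interval -0.30 to 0.03). The reads of Hsph1 are lower bounds by a common factor, so its intervals err on the wide side. They cannot decide whether this smaller change differs from 0.

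The HSP90 genes were abundant in both libraries. Hsp90aa1 (chr12:110690605-110702728, minus strand) encodes the stress-inducible cytosolic HSP90-alpha and Hsp90ab1 (chr17:45567775-45573271, minus strand) the constitutive HSP90-beta. Hsp90aa1 was at 511 RPKM (14825 reads) in NTB-GMP against 724 RPKM (61911 reads) in 4T1-GMP, a log2 ratio of 0.50 (interval 0.48 to 0.53). Hsp90ab1 was at 1053 RPKM (26878 reads) in NTB-GMP against 1081 RPKM (81310 reads) in 4T1-GMP, a log2 ratio of 0.04 (interval 0.02 to 0.06) that became -0.13 without Rn45s, so its direction depends on the scaling. The ratio of Hsp90aa1 to Hsp90ab1 within a library was 0.485 in NTB-GMP and 0.670 in 4T1-GMP, a log2 change of 0.47 (interval 0.43 to 0.50). The inducible HSP90 gene was thus higher relative to the constitutive one in 4T1-GMP, the opposite of what the inducible and constitutive HSP70 genes showed. Of the 50-base windows of Hsp90aa1, 58.5% were also in other transcripts, against 4.49% for Hsp90ab1.

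The mitochondrial chaperonin genes were higher together, within 1.5-fold. Hspd1 (chr1:55077835-55088243, minus strand) encodes HSP60, the subunits of the folding chamber, and Hspe1 (chr1:55088132-55091307, plus strand) encodes HSP10, its lid. Hspd1 was at 227 RPKM (at least 2699 reads) in NTB-GMP against 306 RPKM (at least 10713 reads) in 4T1-GMP, a log2 ratio of 0.43 (interval 0.37 to 0.49). Hspe1 was at 134 RPKM (at least 131 reads) in NTB-GMP against 196 RPKM (at least 564 reads) in 4T1-GMP, a log2 ratio of 0.55 (interval 0.27 to 0.83). These reads are lower bounds by a common factor, so the intervals err on the wide side. The ratio of Hspd1 to Hspe1 was 1.70 in NTB-GMP and 1.56 in 4T1-GMP, and the interval of its log2 change (-0.40 to 0.16) included 0. Exons of both genes overlap by 112 bases on opposite strands, and 44.8% and 36.1% of their 50-base windows also occurred in other transcripts.

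Hspb1 (chr5:135887919-135889563, plus strand) encodes HSP25, a small heat shock protein that holds unfolded proteins without ATP. It was listed at 0 RPKM in both libraries. At its transcript length of 903 bases, a count of 0 allows up to 0.326 RPKM in NTB-GMP against 0.111 RPKM in 4T1-GMP, taking 3 reads as the limit. Of its 50-base windows, 58.9% also occurred in the pseudogene Hsp25-ps1. How reads that fit both were counted is not given, and if they were left out, these limits would be higher.

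The tested genes of heat shock factors and their regulators had RNA within 1.5-fold, and the activity of their proteins was not measured. Hsf1, the main heat shock transcription factor, was at 19.6 RPKM in NTB-GMP against 16.8 RPKM in 4T1-GMP, with a log2 ratio of -0.22 (interval -0.46 to 0.02). Hsf2, a related factor, was at 5.06 RPKM and 4.28 RPKM, with a log2 ratio of -0.24 (interval -0.53 to 0.06). Both intervals included 0, but they rest on the smallest whole reads that fit the RPKM. Such reads can be lower bounds, so these intervals may be too wide to decide whether either gene differed. Hsf3 was listed at 0 in both libraries, and Hsf4 and Hsf5 had 0 reads in NTB-GMP and 1 read each in 4T1-GMP. Hsbp1, whose protein binds HSF1 and restrains it, was at 41.1 RPKM and 52.8 RPKM, with a log2 ratio of 0.36 (interval 0.22 to 0.51). Ier5, an immediate early gene whose protein activates HSF1, was at 2.91 RPKM and 3.21 RPKM, with a log2 ratio of 0.13 (interval -0.19 to 0.48). Of the 4 tested genes of this list, 0 passed 1.5-fold in either direction.

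Other genes that HSF1 is known to activate did not follow Hspa1a and Hspa1b. Of 13 tested genes in this list, 0 were higher and 0 lower past 1.5-fold, and their median log2 ratio was 0.29. The lowest was Bag3, an HSP70 partner in selective autophagy, at 5.72 RPKM in NTB-GMP against 4.18 RPKM in 4T1-GMP (log2 ratio -0.44, or -0.61 and past 1.5-fold without Rn45s). Ubb, a polyubiquitin gene, was near 0 (331 and 318 RPKM, log2 ratio -0.06). Ahsa1, the activator of HSP90 ATPase, was at 117 RPKM and 165 RPKM (log2 ratio 0.50), and Mrpl18, a mitochondrial ribosomal protein, at 74.0 RPKM and 101 RPKM (log2 ratio 0.45).

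Among the other HSP70 family genes, 1 of 7 tested was higher and 1 lower past 1.5-fold, with a median of 0.38. The gene that was lower was Hspa1l. The gene that was higher, Hspa2, had 8.54 RPKM in NTB-GMP against 13.2 RPKM in 4T1-GMP (log2 ratio 0.62, and 0.46 and within 1.5-fold without Rn45s). Hspa13, an HSP70 protein of the microsomes, was at 22.3 RPKM and 31.0 RPKM (log2 ratio 0.47). The mitochondrial HSP70 gene Hspa9 stood at the median of the list, with 145 RPKM in NTB-GMP against 189 RPKM in 4T1-GMP.

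Of 25 tested J-domain genes other than Dnajb1, 3 were higher and 1 lower past 1.5-fold, with a median of 0.11. The highest ratios at a mean RPKM of at least 5 were those of Dnajc13, which acts on endosomes (24.0 and 43.2 RPKM, log2 ratio 0.84), and Dnajc6, an auxilin that recruits HSC70 to clathrin coats (12.7 and 21.2 RPKM, log2 ratio 0.74). The lowest ratios at that level, both within 1.5-fold, were those of Dnajb4, a close relative of Dnajb1 (9.52 and 7.22 RPKM, log2 ratio -0.39), and Dnajc17 (9.84 and 7.77 RPKM, log2 ratio -0.34). Of 12 nucleotide exchange factors and HSP70 partners, 0 passed 1.5-fold, with a median of 0.27 and with Bag6 (log2 ratio -0.17) and Stub1 (log2 ratio 0.40) among the outermost genes. Of 21 HSP90 cochaperones, 0 passed 1.5-fold, with a median of 0.17 and a range from -0.37 for Cdc37l1 to 0.50 for Ahsa1.

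Chaperones of the remaining lists were mostly slightly higher. Of 16 mitochondrial chaperones and proteases, 2 were higher past 1.5-fold and 0 lower, with a median of 0.26. They were Htra2, a protease of the intermembrane space (36.7 and 71.8 RPKM, log2 ratio 0.97), and Grpel1, the nucleotide exchange factor of mitochondrial HSP70 (12.5 and 23.4 RPKM, log2 ratio 0.90), and the lowest of the list was Bcs1l at -0.13. Of 14 tested subunits of TRiC and prefoldin, the cytosolic chaperonin and its helper, 0 passed 1.5-fold, with a median of 0.33 and a range from -0.34 for Pfdn2 to 0.53 for Pfdn4. Of 18 chaperones of the endoplasmic reticulum, 8 were higher and 0 lower past 1.5-fold, with a median of 0.50, which is the highest median among the chaperone lists with more than 2 tested genes. Sdf2l1 (89.4 and 184 RPKM, log2 ratio 1.04) and Dnajb11 (35.2 and 64.5 RPKM, log2 ratio 0.87), both cofactors of the endoplasmic HSP70 protein BiP, had the highest ratios. Without Rn45s, 3 of the 18 passed, with a median of 0.34. On that scaling the median was 0.09 for the mitochondrial list and 0.17 for TRiC and prefoldin. Of the other small heat shock proteins, 5 of 9 were listed at 0 in both libraries and both tested genes (Hspb6 and Hspb11) were higher past 1.5-fold, at 1.33 and 3.34 RPKM in NTB-GMP, with intervals that included 0.

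**Figure D4:**
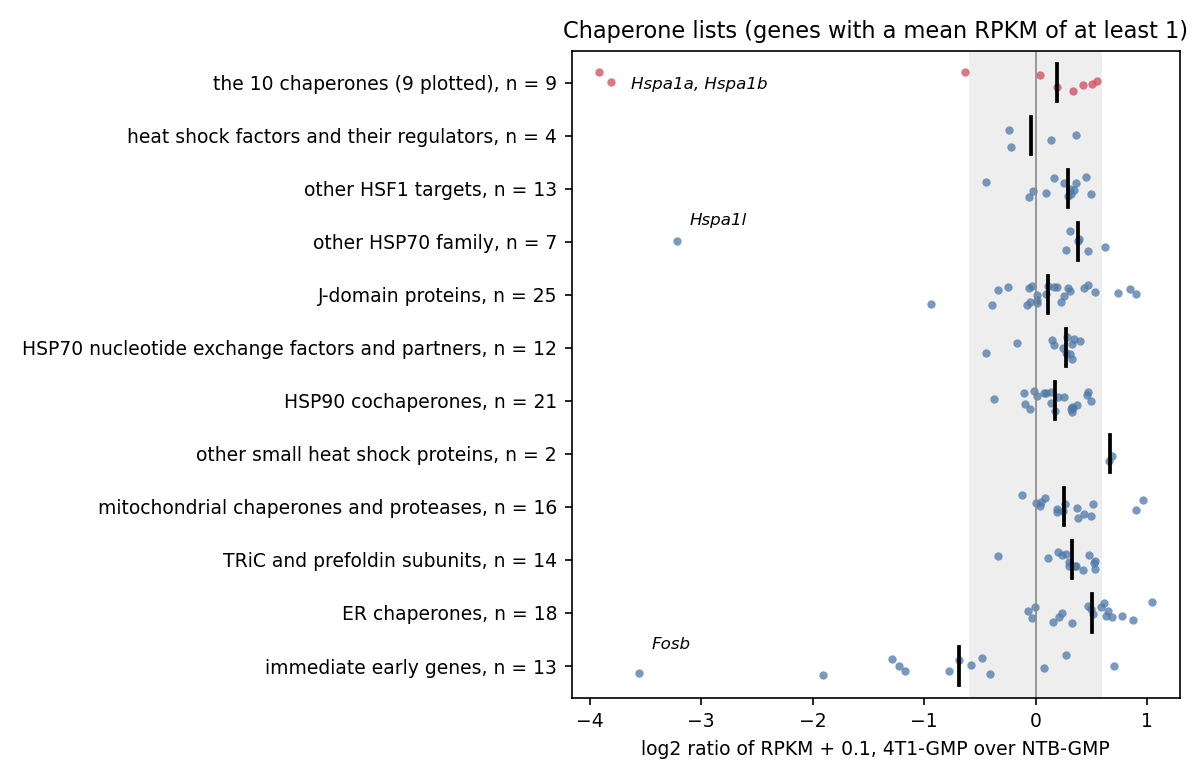
The log2 ratio of RPKM + 0.1, 4T1-GMP over NTB-GMP, of each tested gene (points) in the chaperone set and in 11 lists, with the list median (black bars) and the range within 1.5-fold (grey band). Hspa1a, Hspa1b and Hspa1l lie between -4 and -3 apart from the other chaperones, the only other point in that range is Fosb among the immediate early genes, and the median of the immediate early genes is -0.69.

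Other genes moved in the same libraries and are given beside the result for Hspa1a and Hspa1b. Of 13 tested immediate early genes, which rise within minutes of a stimulus, 7 were lower and 1 higher past 1.5-fold in 4T1-GMP, with a median of -0.69. Fosb was at 12.3 RPKM in NTB-GMP against 0.953 RPKM in 4T1-GMP (log2 ratio -3.56), and Jun at 44.1 RPKM and 11.7 RPKM (log2 ratio -1.91), whereas Junb was higher, at 14.8 RPKM and 24.2 RPKM (log2 ratio 0.70). The summed RPKM of the 18 listed genes was 198 in NTB-GMP and 120 in 4T1-GMP. Without Rn45s, 9 of the 13 were lower and 0 higher. Their part in the difference of Hspa1a and Hspa1b was not tested.

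Markers of other blood cell types also differed. For GMPs that were cultured, the study's methods describe bone marrow depleted of cells with Ter-119, Gr-1, B220 or CD3, and a gate on CD16/32, CD150, Sca-1 and c-Kit. Such a sort would remove most mature neutrophils, lymphoid and erythroid cells, but it is not stated for these libraries. All 13 mature neutrophil genes were higher past 1.5-fold (12 without Rn45s), with a summed level of 521 RPKM in NTB-GMP against 4083 RPKM in 4T1-GMP, and Mmp8 and Mmp9, defining genes of late neutrophils, were at 0.521 and 0.588 RPKM in NTB-GMP and 14.1 and 15.6 RPKM in 4T1-GMP. Of 12 tested monocyte and dendritic cell genes, 11 were lower and 0 higher, with a summed level of 323 RPKM in NTB-GMP against 124 RPKM in 4T1-GMP. F13a1 was the exception (49.1 and 49.6 RPKM). Of 4 tested genes of stem and early progenitor cells, 3 were lower, with a sum of 62.2 and 23.5 RPKM over the list, and all 3 tested erythroid and megakaryocyte genes were lower, with a sum of 22.3 and 6.16 RPKM and with Hba-a1 and Hbb-bs listed at 0 in both libraries. Of 2 tested lymphoid genes, 1 was higher and 0 lower, and the list summed to 206 and 350 RPKM, nearly all of it Nkg7 (190 and 337 RPKM). Of 11 genes of GMPs and primary granules, 6 were higher and 3 lower past 1.5-fold. Of the genes of the markers in that gate, Kit (78.5 and 49.1 RPKM, log2 ratio -0.67) and Fcgr3, which encodes CD16 (53.1 and 28.6 RPKM, log2 ratio -0.89), were lower in 4T1-GMP, and Ly6a (Sca-1) and Slamf1 (CD150), which mark cells outside it, were at or below 0.266 RPKM in both libraries. Cd34, a progenitor gene, was at 154 RPKM in NTB-GMP against 59.4 RPKM in 4T1-GMP. Prtn3 and Ms4a3, genes of the GMP stage, were at 1399 and 479 RPKM in NTB-GMP and 3311 and 1220 RPKM in 4T1-GMP, so that GMP genes were present in both libraries. In bulk RNA, fewer cells of a type and less RNA per cell cannot be told apart, and the part of cell composition in the chaperone ratios was not tested.

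The libraries also differed in depth. The library sizes behind the RPKM were 10180365 for NTB-GMP and 30016263 for 4T1-GMP, which made the 4T1-GMP size 2.95 times as large. These sizes may be scaled totals and not plain reads. The reads recovered over all genes were 9488112 for NTB-GMP and 26353368 for 4T1-GMP. After random thinning of the deeper library to the size of the other, the log2 ratios were -3.78 for Hspa1a and -3.91 for Hspa1b. Mouse, tumor, library and sequencing depth changed together and cannot be told apart with 1 library per group.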

How the data were processed

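The authors deposited RPKM, 1 value per gene symbol, for 1 bulk RNA-seq library each of NTB-GMP and 4T1-GMP. The submitters' processing notes name CASAVA 1.8.2, cutadapt 1.2.1, TopHat2 2.0.13, Picard 1.97, HTSeq 0.6.1, edgeR 3.12.1 and the build mm10. Their settings, strand use, gene lengths and treatment of reads with several matches are not given in the sources used here. When RPKM are divided by total reads, a gene such as Rn45s that takes unequal shares of the libraries shifts every ratio. Whether the sizes used here had already been scaled for this is not given. The ratios without Rn45s are therefore an alternative scaling and not a correction.

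The 10 genes and the gene lists were chosen with earlier results of these data known, and the lists came from general knowledge of chaperone biology. RPKM steps gave whole reads for 14833 of 14833 genes above 0 (tolerance 1e-09), which came to 9488112 and 26353368 reads, and some genes' reads are lower bounds by a common factor, which for Hspa1a was set to 2 from its RefSeq span. The library sizes found, 10180365.24 and 30016262.80, are not whole, as when a total is multiplied by a scaling factor. No count model was fitted, because there is 1 library per group. Ratios used log2(RPKM + 0.1) over genes whose mean RPKM reached 1, and called means past 1.5-fold. Intervals on ratios were Clopper-Pearson, those on levels exact Poisson and those on ratios of ratios Woolf, each at 95%. They used reads without the added 0.1, so for genes with low RPKM the interval of a ratio is not that of the printed value. The recovery and ratio scripts were tested on simulated data. Named were all 10 genes, the heat shock factors, and from each list up to 2 of the largest rises and falls at a mean RPKM of at least 5, of which 1 gene is not reported here. Gene positions, types and transcripts came from GENCODE M21 (GRCm38) and promoters from RefSeq (GRCm38.p6). A planned comparison of proteins within families was replaced by one of transcripts. Alternatives were pseudocounts of 1 and 0.01, Rn45s left out, quantile normalization, median centring, thinning (20 draws), Hspa1a and Hspa1b summed, a 2-fold limit, a minimum mean RPKM of 5 and no minimum. Python 3.11.15 was used with numpy 2.4.6, pandas 2.3.3, scipy 1.17.1, Biopython 1.88 and matplotlib 3.10.9. The study's single-cell data were not used here.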

Additional observations from a re-analysis of the deposited data

How the results depend on the processing

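The counts of 0 genes higher and 3 lower past 1.5-fold held under both pseudocounts, without Rn45s, under quantile normalization, after median centring and after thinning. With Hspa1a and Hspa1b summed or with a 2-fold limit, 2 were lower. The median of the 9 genes ranged within the counting interval of its gene, Hsph1, under every alternative. The reads of Hsph1, Hspd1 and Hspe1 are lower bounds, so their intervals err on the wide side and are easier to stay within. Of 54 recomputed log2 ratios of single chaperones, 38 stayed within their counting interval, 16 moved outside it and 0 of the genes past 1.5-fold changed sign. With a pseudocount of 1 the ratios moved to -3.65 for Hspa1a and -3.76 for Hspa1b. Without Rn45s they moved to -3.98 for Hspa1a, -4.08 for Hspa1b, 0.17 for Hspa8, 0.34 for Hsp90aa1, -0.13 for Hsp90ab1, -0.79 for Dnajb1 and 0.27 for Hspd1. Quantile normalization gave 0.21 for Hspa8, 0.25 for Hsp90aa1, -0.088 for Hsp90ab1 and 0.14 for Hspd1. Median centring gave 0.28 for Hspa8, 0.45 for Hsp90aa1 and -0.013 for Hsp90ab1. Of 7 genes with a matched promoter, 6 held a heat shock element and 3 held the stricter array of 3 units, by construction of the motif. The share of all genes lower past 1.5-fold was 11.6%, and 6.97% at a mean RPKM of at least 5. Of 99 recomputed list values, 82 stayed the same within these limits and 17 moved. Without Rn45s the share of all genes with a higher value went from 54.7% to 39.2%. No replicate could be left out. No paired analysis was possible because there is a single library on either side. Depth limits Hspb1 and the other genes with few reads.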
